A study of Mus musculus with 24 samples.

Results

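Non-homologous end joining (NHEJ) was followed here through 8 genes in mouse mammary tissue: Prkdc, Xrcc5, Xrcc6, Dclre1c, Xrcc4, Lig4, Nhej1 and Trp53bp1. Every array probe that the deposited annotation assigns to one of these genes was taken, which gave 12 probes of 55681 on the array. Each array held the RNA of the mammary tissue of 1 mouse, and there were 8 groups of 3 mice. BALB/c mice are a widely used laboratory strain, whereas SPRET/EiJ mice were bred from wild-caught animals of a separate species, Mus spretus. The irradiated mice (LDIR) received 10 cGy of X-rays to the whole body once, at 8 to 9 weeks of age, and the sham mice received none. BALB/c tissue was collected 2, 4 and 8 weeks later from LDIR and sham mice, and SPRET/EiJ tissue at 4 weeks from LDIR and sham mice. All of the BALB/c groups carry whatever alleles that strain has, so no group separates 1 gene from the rest of the strain.

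NHEJ rejoins the ends of a broken DNA molecule without a template, and it is the main route for repairing radiation-induced double-strand breaks in cells that are not dividing. Ku70 and Ku80 (Xrcc6 and Xrcc5) ring the broken end and recruit the kinase DNA-PKcs (Prkdc). Artemis (Dclre1c) is a nuclease that trims ends which cannot be joined directly, and XRCC4, DNA ligase IV (Lig4) and XLF (Nhej1) seal them. 53BP1 (Trp53bp1) binds chromatin around the break and holds back the resection that would divert it to homologous recombination. BALB/c mice are known to carry a Prkdc variant that lowers DNA-PKcs. The question addressed is whether the RNA of these genes differed between the strains, after LDIR and over time.

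The probes behind the results are given first, because the probes of a single gene did not always move together. All sequences are those in the deposited annotation, 5′ to 3′ in lower case, with positions in the mm9 build. The Prkdc probe lies at chr16:15839317-15841922 on the plus strand. Its 60 bases span 2606 bases of the genome, so it crosses an intron, and it is printed on each array at 10 spots. The Xrcc5 probe, at chr1:72430014-72430320 on the plus strand, spans 307 bases and also crosses an intron. The 4 Dclre1c probes lie on the plus strand of chromosome 2. A_52_P462203 (chr2:3370687-3370746) and A_55_P2129291 (chr2:3371015-3371074) are annotated to transcript variant 1 and lie 268 bases apart. A_55_P2067116 (chr2:3376817-3376876) starts 5742 bases further on, and A_55_P2067131 (chr2:3378320-3378379) another 1443 bases on, both annotated to transcript variant 2. Of Trp53bp1, on the minus strand of chromosome 2, A_52_P464437 (chr2:121024792-121024851) and A_66_P139355 (chr2:121022706-121022765) lie 2026 bases apart. The first 30 bases are shown for the probes toward the ends of their transcripts.
Prkdc A_51_P241667: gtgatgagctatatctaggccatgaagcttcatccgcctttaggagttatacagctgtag
Xrcc5 A_51_P201661: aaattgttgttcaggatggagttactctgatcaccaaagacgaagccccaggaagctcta
Dclre1c A_52_P462203: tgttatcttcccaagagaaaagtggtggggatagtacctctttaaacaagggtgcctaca
Dclre1c A_55_P2129291: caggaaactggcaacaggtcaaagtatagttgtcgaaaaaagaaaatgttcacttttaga
Dclre1c A_55_P2067116, first 30 bases: gatgggctctggaccttaaataagatgact
Dclre1c A_55_P2067131, first 30 bases: gcccttattgcctggtacttgaatgatgaa
Trp53bp1 A_52_P464437: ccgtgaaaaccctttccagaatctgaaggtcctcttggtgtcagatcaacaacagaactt
Trp53bp1 A_66_P139355, first 30 bases: tactgtggttatcttccataggaatatagt

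The other 4 genes have 1 probe each. They lie at chr15:81870452-81870511 (Xrcc6, plus strand), chr13:89988731-89988790 (Xrcc4), chr8:9970290-9970349 (Lig4) and chr1:75014076-75014135 (Nhej1), the last 3 on the minus strand. Signal was well above background on each of the 24 arrays for 11 of the 12. The exception, Dclre1c A_55_P2067116, missed that mark on 1 array, SPRET/EiJ LDIR replicate C. Levels are log2 intensities relative to the 75th percentile of the same array, so a level of 0 is the brightness that 75% of the spots stay under. The level of a probe also depends on its sequence, so differences are taken between arrays and a brighter probe is not read as a more abundant RNA. Where a gene has several probes, the gene is represented by the probe with the brightest signal, Dclre1c A_55_P2129291 and Trp53bp1 A_52_P464437.

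The tissue label was borne out by its markers. All 6 epithelial and all 5 white adipocyte markers were well above background on each of the 24 arrays. The strains differed in epithelial markers. All 6 had higher values in BALB/c over both treatments at 4 weeks and 3 passed the strain thresholds (median difference 1.63), and the summed level lay between 6.79 and 8.11 in BALB/c and between 4.38 and 6.72 in SPRET/EiJ. The part of epithelial cells in the strain differences below was not tested. In 3 arrays, BALB/c 8-week sham replicate A, BALB/c 8-week LDIR replicate B and SPRET/EiJ LDIR replicate A, the summed level of 7 lymphocyte markers was 6.78, 7.11 and 6.83, against at most 3.86 in the other 21. In bulk tissue, fewer cells of a type and less RNA per cell cannot be told apart. The arrays lay on 3 slides, and no slide held both strains at 4 weeks, so slide and strain cannot be told apart there. A slide fit and a comparison within slide 3 rest on BALB/c mice of other weeks. The slide 3 comparison also includes BALB/c 8-week LDIR replicate B and SPRET/EiJ LDIR replicate A, both rich in lymphocyte markers.

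**Figure D1:**
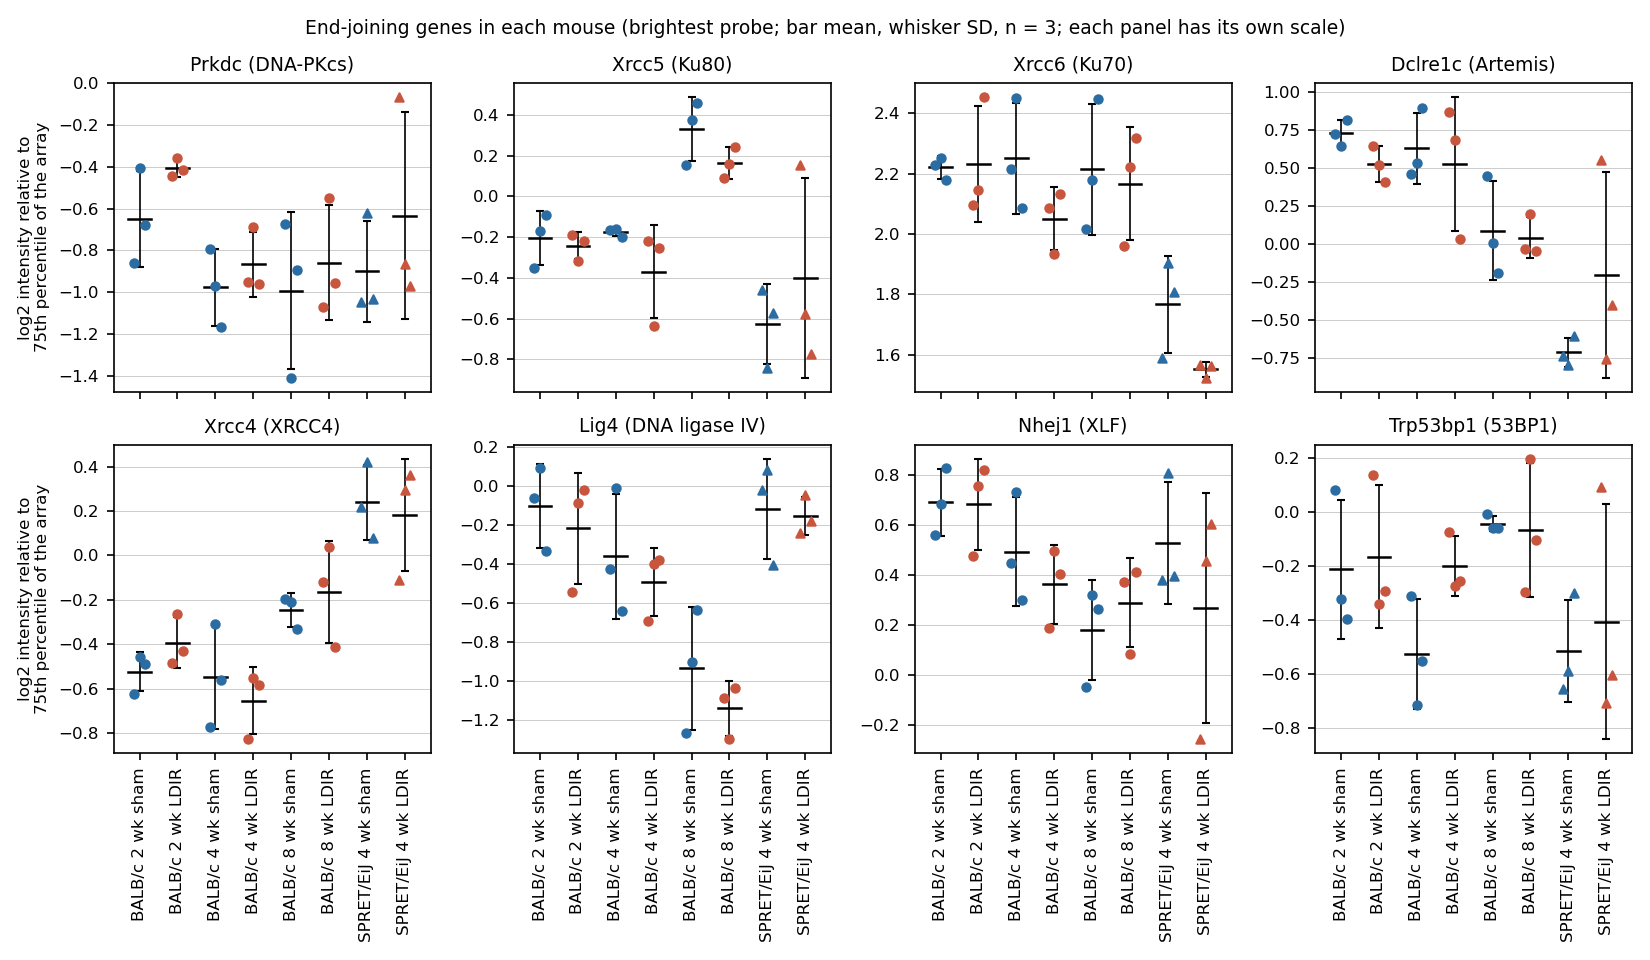
Levels of the 8 genes in each of the 24 mice, by group, on the log2 scale relative to the 75th percentile of the array. Points are mice, bars are group means and whiskers SD (n = 3). The Prkdc levels of the strains overlap, whereas the Xrcc4 levels of all 6 SPRET/EiJ mice lie above those of the 6 BALB/c mice at 4 weeks.

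Prkdc RNA was not distinguishable between the strains. At 4 weeks the sham BALB/c mice had levels of -0.80, -0.97 and -1.17, and the sham SPRET/EiJ mice -1.05, -0.62 and -1.03. After LDIR the BALB/c levels were -0.95, -0.69 and -0.96, and the SPRET/EiJ levels -0.07, -0.86 and -0.97. The groups overlapped under both treatments, and the 1 high value was that of the SPRET/EiJ mouse whose tissue was rich in lymphocyte markers. BALB/c minus SPRET/EiJ was -0.077 (95% interval -0.56 to 0.41; limma, adjusted p = 0.822) in sham mice and -0.15 (-0.55 to 0.24; adjusted p = 0.561) over both treatments. Without SPRET/EiJ LDIR replicate A the second value was -0.019. These intervals bound the difference in Prkdc RNA as measured by a probe near the 3′ end and carry no information on the protein or its activity.

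Within an array the 10 Prkdc spots agreed closely. Their SD had a median of 0.0706 over the arrays, giving an array mean with a median standard error of 0.0229. The SD between mice of the same group lay between 0.0440 and 0.496, with a median of 0.235.

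Neither Ku gene passed the strain thresholds. Xrcc6 (Ku70) had levels of 2.21, 2.45 and 2.09 in sham BALB/c mice and 1.59, 1.90 and 1.81 in sham SPRET/EiJ mice, and after LDIR 2.08, 1.93 and 2.13 against 1.57, 1.52 and 1.56. The 6 BALB/c mice all lay above the 6 SPRET/EiJ mice. The difference over both treatments was 0.49 (0.22 to 0.76; adjusted p = 0.0103). Xrcc5 (Ku80) differed by 0.45 in sham mice (adjusted p = 0.123) and by 0.031 after LDIR, where SPRET/EiJ replicate A stood at 0.15 against -0.58 and -0.78 in the other mice of its group. Over both treatments Xrcc5 differed by 0.24 (-0.16 to 0.64; adjusted p = 0.375), and by 0.39 without that array (adjusted p = 0.0378).

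Xrcc4 was the 1 gene whose brightest probe passed the strain thresholds over both treatments, and it was lower in BALB/c. Its levels were -0.77, -0.31 and -0.56 in sham BALB/c mice, against 0.22, 0.42 and 0.08 in sham SPRET/EiJ mice. After LDIR they were -0.83, -0.55 and -0.58 against -0.11, 0.29 and 0.36. No BALB/c mouse reached the lowest SPRET/EiJ mouse. The difference was -0.79 in sham mice (adjusted p = 0.0374), -0.84 after LDIR (adjusted p = 0.0749) and -0.81 over both (-1.13 to -0.49; adjusted p = 0.00108), or 1.75-fold. Against the 8-week BALB/c sham mice it was -0.48, and within slide 3, where 2 BALB/c 8-week LDIR mice share a slide with SPRET/EiJ LDIR mice, -0.37. It no longer passed the thresholds with slide as a block (-0.89).

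Its partners in the ligation step did not pass the strain thresholds, and neither was tested against Xrcc4. Lig4 differed by -0.29 over both treatments (-0.62 to 0.043; adjusted p = 0.190) and Nhej1 by 0.029 (-0.35 to 0.41; adjusted p = 0.922). The sham levels of Lig4 were -0.43, -0.01 and -0.64 in BALB/c and -0.02, 0.08 and -0.41 in SPRET/EiJ, and those of Nhej1 0.45, 0.73 and 0.30 against 0.38, 0.81 and 0.40. Both sets overlapped. After LDIR the Lig4 levels did not overlap, at -0.69, -0.40 and -0.38 in BALB/c and -0.24, -0.05 and -0.18 in SPRET/EiJ, a difference of -0.34 (adjusted p = 0.402).

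Dclre1c gave the largest strain differences of the 8 genes, but the size depended on the probe. A_55_P2067116 read -1.31, -1.54 and -1.09 in sham BALB/c mice and -4.34, -4.54 and -4.68 in sham SPRET/EiJ mice, and after LDIR -0.93, -0.88 and -1.56 against -3.72, -4.35 and -4.66. The strains lay far apart in every mouse. The difference was 3.21 in sham mice (2.74 to 3.67; adjusted p = 0.000256), 3.12 after LDIR and 3.16 over both treatments. The probe was not well above background in SPRET/EiJ LDIR replicate C, so 5 of the 6 SPRET/EiJ arrays measured it. The values after LDIR and over both treatments include that array and are approximate. It passed the strain thresholds in each of these comparisons and within slide 3, where it was 3.32. With the normexp background correction, which compresses dim probes, it was 1.52 in sham mice and 1.56 over both treatments, and still passed.

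The brightest Dclre1c probe, A_55_P2129291, read 0.46, 0.53 and 0.90 in sham BALB/c mice and -0.74, -0.80 and -0.61 in sham SPRET/EiJ mice. That difference was 1.34 (0.90 to 1.79; adjusted p = 0.00474) and passed the thresholds. The call was lost in 4 of the 6 fits that left out 1 array (BALB/c sham replicate B, or SPRET/EiJ sham replicate A, B or C), with differences of 1.21 to 1.43 over the 6. After LDIR the groups overlapped, since SPRET/EiJ replicate A read 0.55 against -0.76 and -0.40 in the other mice of its group, and the difference was 0.73 (adjusted p = 0.332). Over both treatments it was 1.04 (adjusted p = 0.00636), just outside the thresholds, and without that array 1.24, inside them. Within slide 3, where both strains include a mouse rich in lymphocyte markers, it was 0.28. The neighbouring probe A_52_P462203 differed by 0.50 in sham mice (adjusted p = 0.121), whose groups did not overlap. Over both treatments it differed by 0.22 (adjusted p = 0.537), or 0.44 without SPRET/EiJ LDIR replicate A (adjusted p = 0.0514). A_55_P2067131, the dimmest, differed by 1.54 in sham mice and 1.36 over both treatments (adjusted p = 0.00204), where it passed the thresholds. That call was lost with normexp (0.42, and 0.44 in sham mice). Within slide 3 the difference was 0.41.

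**Figure D2:**
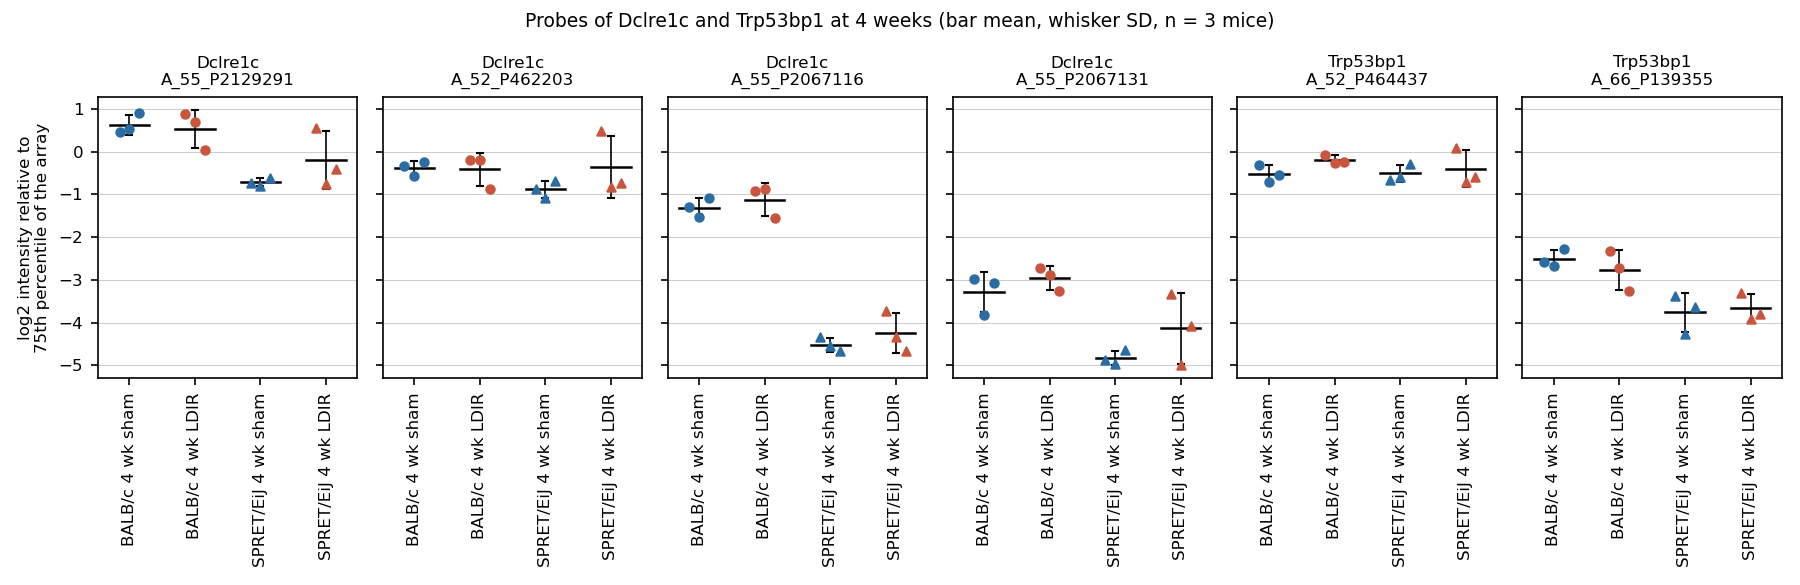
Levels of the 4 Dclre1c and 2 Trp53bp1 probes in the 12 mice at 4 weeks, on the log2 scale relative to the 75th percentile of the array. Points are mice, bars means and whiskers SD (n = 3). A_55_P2067116 separates the strains by about 3.16, whereas A_52_P462203 and Trp53bp1 A_52_P464437 show strains that overlap. The sham groups of A_52_P462203 do not overlap.

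Trp53bp1 showed the same dependence on the probe. A_52_P464437 read -0.31, -0.72 and -0.55 in sham BALB/c mice and -0.66, -0.59 and -0.30 in sham SPRET/EiJ mice, a difference of -0.012 (-0.47 to 0.45; adjusted p = 0.972). A_66_P139355, the dimmer probe nearer the end of the transcript, read -2.57, -2.67 and -2.28 against -3.37, -4.27 and -3.64. Its groups did not overlap, and it differed by 1.25 in sham mice (adjusted p = 0.0248) and by 1.07 over both treatments (adjusted p = 0.00241), where it passed the thresholds. That call was lost with normexp (0.49), with slide as a block (1.28), and in 3 of the 12 fits that left out 1 array (BALB/c sham replicate C, BALB/c LDIR replicate A or SPRET/EiJ LDIR replicate B; 0.94 to 1.21 over the 12). Slide 3 alone gave 0.45.

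Whether probes of a gene differed in their strain difference was tested directly, as the difference of 2 probes within each mouse, by exact permutation of strain within treatment (400 relabellings, two-sided). In 6 of the 7 probe pairs p was 0.005, the smallest that the design allows (Benjamini-Hochberg over the pairs, 0.00583). The Dclre1c pairs share probes, so their results are not independent of each other. Probe pairs of genes outside these were not tested, so no share over the array stands beside the count. A_55_P2067116 and A_52_P462203 of Dclre1c differed by 2.94, and the Trp53bp1 probes by 0.98. The remaining pair, A_55_P2067131 and A_55_P2129291 of Dclre1c, differed by 0.32 (exact p = 0.095). The probes carry the sequence of a laboratory mouse, and mismatches with Mus spretus were not tested, so a strain difference of a single probe is a difference in signal that may not be one in RNA level.

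Counted over probes, 2 of 12 passed the strain thresholds (unadjusted p under 0.001 and over 1.5-fold) in sham mice, where 8.85% of all probes did. After LDIR 1 of 12 passed, against 5.67% of all probes. Over both treatments 4 of 12 passed, 3 higher and 1 lower in BALB/c, against 16.6% of all probes. At an adjusted p under 0.05 the counts were 5 of 12 in sham mice (18.7% of all probes), 1 of 12 after LDIR (11.1%) and 6 of 12 over both treatments (29% of all probes). The strains did not overlap in 8 of 12 probes in sham mice, against 36.8% of all probes, and in 6 of 12 after LDIR, against 33.2%. With 12 probes of 8 genes, several sharing a gene, these counts are a description beside the background.

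**Figure D3:**
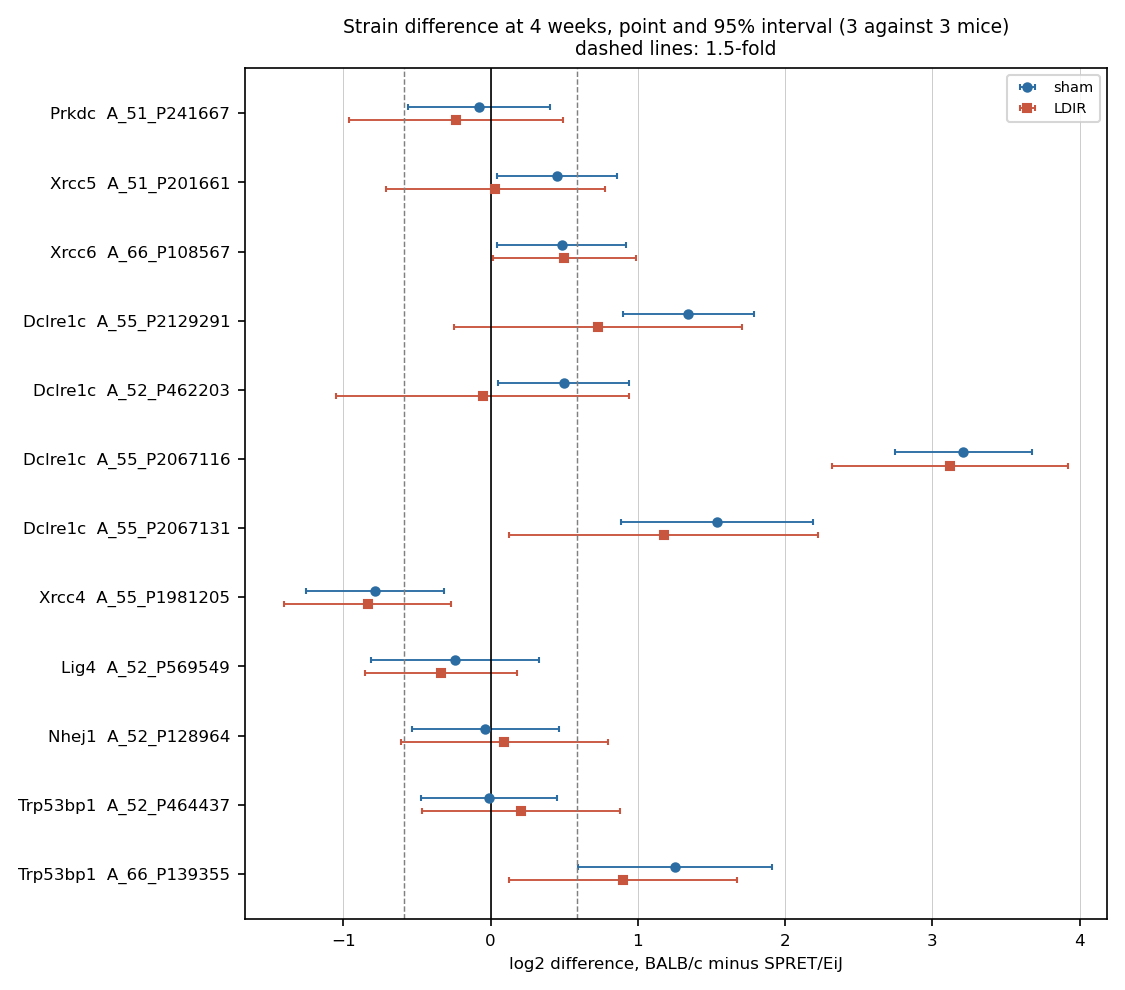
BALB/c minus SPRET/EiJ at 4 weeks for each of the 12 probes, as log2 differences with 95% intervals from limma. The Dclre1c and Trp53bp1 probes spread from about 0 to 3.21 in sham mice, the Prkdc interval spans 0, and Xrcc4 lies below 0.

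LDIR moved none of the NHEJ genes past the thresholds. With limma, 0 of 12 probes passed (unadjusted p under 0.05 and over 1.5-fold) in BALB/c at 2 weeks (3.13% of all probes did), 4 weeks (4.78%) and 8 weeks (1.8%), or in SPRET/EiJ at 4 weeks (2.2%). An unadjusted p under 0.05 alone was reached by 0 of 12 in each, against 5.01%, 6.09%, 1.86% and 2.21% of all probes in the same order, and 0 of 12 passed with the methods' t-test. Pooling the BALB/c weeks gave 0 of 12 (1.08% of all probes, and 3.18% by p alone), and so did the difference between the strains' LDIR effects (3.53% by either rule). No probe on the whole array reached an adjusted p under 0.05 in any of the 4 LDIR comparisons.

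Prkdc is the only NHEJ gene here whose probe is printed at several spots. At 2 weeks its LDIR levels were -0.44, -0.36 and -0.42 and its sham levels -0.86, -0.41 and -0.68. At 8 weeks they were -1.07, -0.55 and -0.95 against -0.67, -1.41 and -0.89. The groups overlapped at each week, although at 2 weeks each LDIR mouse read above the sham mouse of its replicate letter. Whether the letters pair these mice depends on the probes used. LDIR minus sham was 0.25 (-0.15 to 0.64) at 2 weeks, 0.11 (-0.32 to 0.54) at 4 weeks and 0.13 (-0.60 to 0.87) at 8 weeks. Pooled over the weeks it was 0.16 (-0.079 to 0.41; adjusted p = 0.997), so an LDIR effect on BALB/c Prkdc RNA above 0.41 on the log2 scale lies outside the interval. At 8 weeks the sign turned without sham replicate B (-0.075) or LDIR replicate B (-0.021).

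In SPRET/EiJ several LDIR differences rested on replicate A. Prkdc differed by 0.27 (-0.50 to 1.04) and by -0.018 without that mouse. The Dclre1c probes A_52_P462203 and A_55_P2129291 differed by 0.52 and 0.51, and by 0.099 and 0.13 without it. Xrcc6 differed by -0.22 with and without that mouse. The summed lymphocyte marker level of replicate A was 6.83, and that of the SPRET/EiJ sham mice lay between 3.39 and 3.54. The part of these cells in the differences was not tested. When SPRET/EiJ LDIR replicate B was left out instead, 1 probe passed, Dclre1c A_55_P2067131. With all of the mice that probe had the largest LDIR difference of the NHEJ probes in SPRET/EiJ, 0.69 (-0.33 to 1.71). It read -3.33 in LDIR replicate A and -5.00 and -4.07 in replicates B and C.

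**Figure D4:**
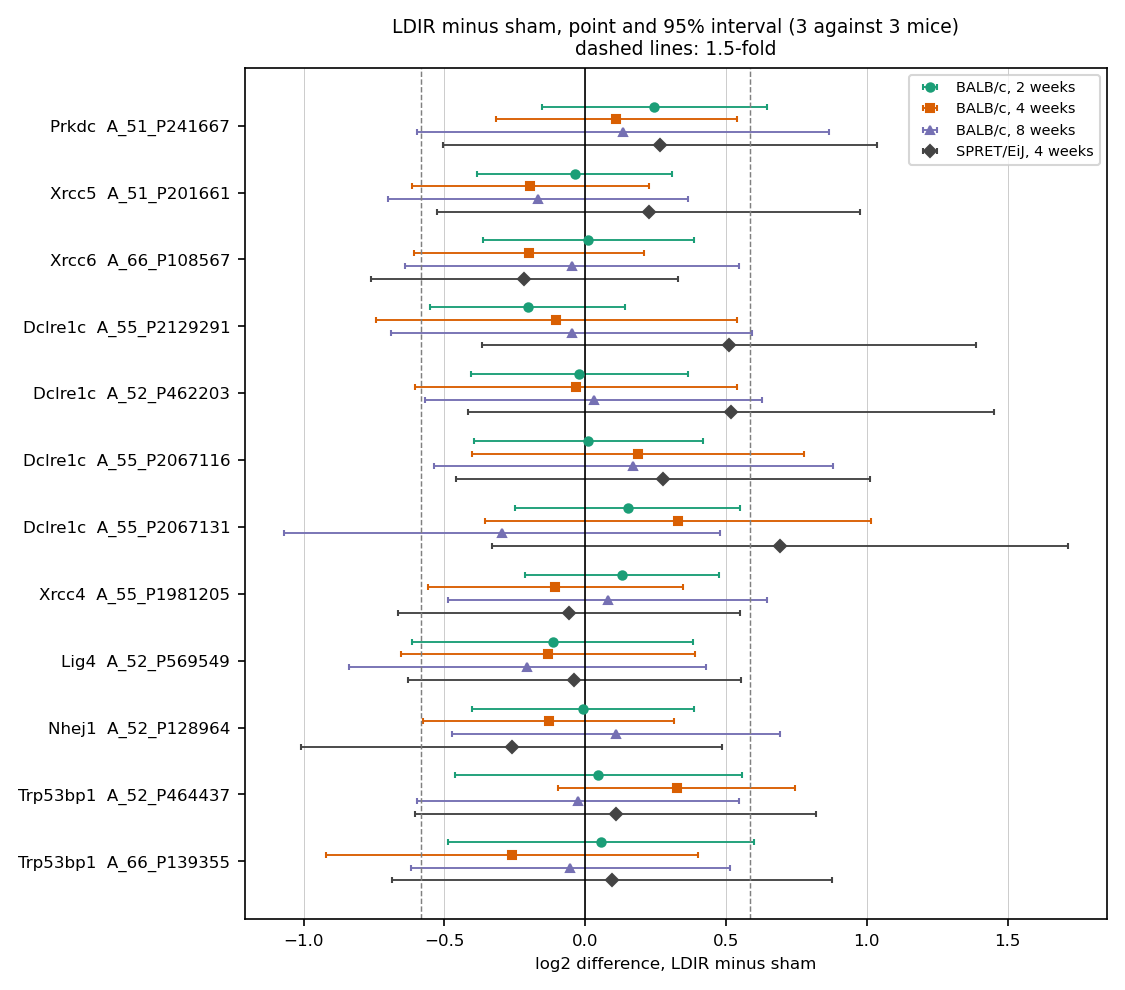
LDIR minus sham for the 12 probes, in SPRET/EiJ at 4 weeks and in BALB/c at 2, 4 and 8 weeks, as log2 differences with 95% intervals from limma (3 mice per group). All of the intervals include 0.

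Groups did not overlap for 3 probes, and for none of the BALB/c probes at 2 weeks (0 of 12, against 11.6% of all probes) or 8 weeks (0 of 12, against 4.84%). In BALB/c mice at 4 weeks, where 12.2% of all probes had groups that did not overlap, Xrcc5 read -0.22, -0.63 and -0.25 after LDIR and -0.17, -0.16 and -0.20 in sham mice, a difference of -0.19 (adjusted p = 0.793). Trp53bp1 A_52_P464437 read -0.07, -0.27 and -0.26 against -0.31, -0.72 and -0.55, a difference of 0.32 (adjusted p = 0.783). In SPRET/EiJ, where 5.85% of all probes had groups that did not overlap, Xrcc6 read 1.57, 1.52 and 1.56 against 1.59, 1.90 and 1.81, a difference of -0.22 (adjusted p = 0.972). With 3 mice against 3 an exact permutation test cannot give a p below 0.1.

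Time after treatment was compared in BALB/c mice. Between 2 and 4 weeks in sham mice limma called 0 of 12 probes (3.04% of all probes passed), with 0 of 12 at an unadjusted p under 0.05 (3.8% of all probes) and 0 of 12 by the methods' t-test, and the weeks overlapped in all 12 (8.63% of all probes did not overlap). Between 4 and 8 weeks in sham mice 1 of 12 passed (13.8% of all probes), Trp53bp1 A_66_P139355, at -0.69 (adjusted p = 0.280). That call was lost with normexp, with the replicate letter as a block, and in 4 of the 6 fits that left out 1 array. The comparison in LDIR mice, and that over both treatments, were added after the sham result was seen. In LDIR mice 2 of 12 passed (21.8% of all probes), and over both treatments 3 of 12, all lower at 8 weeks (19.1% of all probes). Over both treatments 3 of 12 had an adjusted p under 0.05 (13.4% of all probes). The weeks did not overlap in 4 of 12 probes in sham mice (23.4% of all probes), 4 of 12 in LDIR mice (31.6%) and 3 of 12 within slide 2 (18.8%).

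Over both treatments Lig4 fell by 0.61 on the log2 scale between 4 and 8 weeks (95% interval -0.96 to -0.26; adjusted p = 0.0274), or 1.53-fold. Its levels were -0.43, -0.01 and -0.64 in sham and -0.69, -0.40 and -0.38 in LDIR mice at 4 weeks, and -1.26, -0.90 and -0.64 and -1.09, -1.30 and -1.03 at 8 weeks. The LDIR mice of these weeks did not overlap, and the sham mice met at -0.64. The difference was -0.57 in sham mice (adjusted p = 0.455) and -0.65 in LDIR mice (adjusted p = 0.127). Leaving out the 2 arrays of these groups that were rich in lymphocyte markers gave -0.49 (adjusted p = 0.0402), under 1.5-fold, and slide 2 alone, which held 4 mice of each week, gave -0.44.

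Xrcc5 moved the other way, by less than 1.5-fold. At 4 weeks the 6 BALB/c mice lay between -0.63 and -0.16, and at 8 weeks they were at 0.15, 0.38 and 0.46 (sham) and 0.09, 0.16 and 0.24 (LDIR). No mouse overlapped between the weeks. The rise over both treatments was 0.52 (0.25 to 0.79; adjusted p = 0.0182), and without the lymphocyte-rich arrays 0.56 (adjusted p = 0.0102). Within slide 2 the plain difference of the means was 0.60 (exact permutation p = 0.0286, the smallest the design allows; 0.114 after Benjamini-Hochberg over the 12 probes), where treatments were not balanced between the weeks.

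Xrcc4, the ligase IV partner, was 0.40 higher at 8 weeks (0.096 to 0.69; adjusted p = 0.0786) and Prkdc by -0.0032 (-0.36 to 0.35). The Dclre1c probes differed by -0.65 for A_55_P2067131 (adjusted p = 0.0804), -0.52 for A_55_P2129291 (adjusted p = 0.0803), -0.37 for A_52_P462203 (adjusted p = 0.151) and 0.094 for A_55_P2067116 (adjusted p = 0.806), the last from -0.036 to 0.19 over the scalings. Whether the probes differ from each other between the weeks was not tested. Trp53bp1 A_66_P139355 differed by -0.59 (adjusted p = 0.0470), while A_52_P464437 differed by 0.31 (adjusted p = 0.172). The median of all probes shifted by -0.096 in the same comparison. None of the 3 calls passed with quantile normalization or normexp. Without the 2 lymphocyte-rich arrays Prkdc differed by -0.16 and A_55_P2067116 by -0.084, Trp53bp1 A_66_P139355 (-0.58) was no longer called, and A_55_P2067131 (-0.84) and A_55_P2129291 (-0.64) were called.

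**Figure D5:**
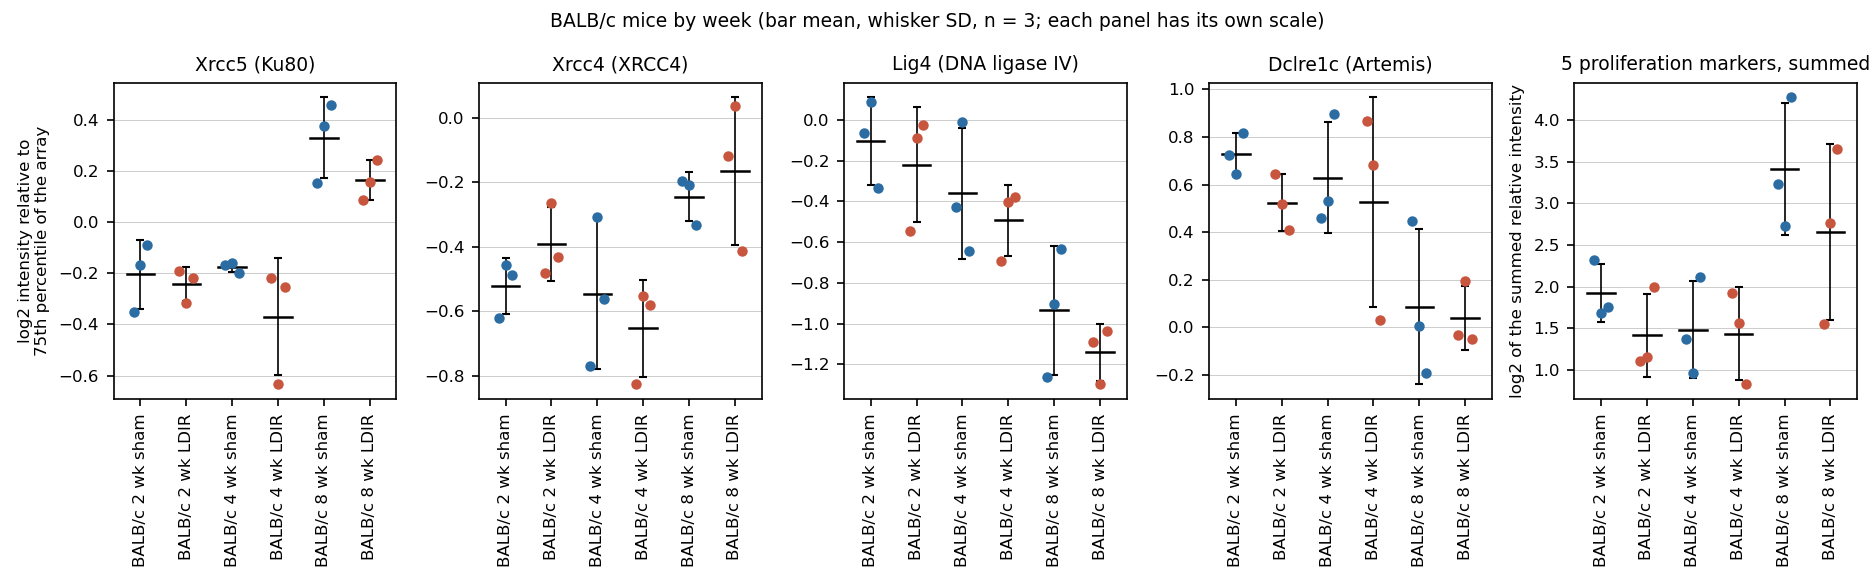
Levels of Xrcc5, Xrcc4, Lig4 and Dclre1c (brightest probe) in the 18 BALB/c mice by week and treatment, with the summed level of 5 proliferation markers beside them, each panel on its own log2 scale. Points are mice, bars means and whiskers SD (n = 3). At 8 weeks Xrcc5 lies above and Lig4 mostly below its 4-week levels.

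Marker levels of other cell types also differed between the weeks, in a comparison that called 19.1% of all probes. All 5 proliferation markers were called higher at 8 than at 4 weeks over both treatments, their summed level lying between 1.55 and 4.27 at 8 weeks and between 0.83 and 2.11 at 4 weeks. All 4 skeletal muscle markers were called higher and 2 of 5 white adipocyte markers lower. Of the epithelial markers 2 of 6 were called higher (median difference 0.42), and of the lymphocyte markers 2 of 7 (median 2.08). The summed lymphocyte level was 6.78 and 7.11 in the 2 lymphocyte-rich 8-week arrays, whereas the other 8-week arrays lay between 2.51 and 2.94, mostly below the 4-week arrays at 2.90 to 3.25. The part of any of these cells in the changes of Lig4 and Xrcc5 was not tested.

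The 3 arrays rich in lymphocyte markers shared a pattern in the NHEJ genes, which was looked for after their values had been seen and is given without a test. Prkdc was the highest of its group in each of them, exceeding the mean of the other mice by 0.48, 0.47 and 0.85. So were all 4 Dclre1c probes and Trp53bp1 A_52_P464437, 6 of 12 probes in all, where 15.6% of all probes were highest in each of the 3. Lig4 (by -0.49, -0.24 and -0.13) and Nhej1 (by -0.34, -0.31 and -0.79) were the lowest in each, 2 of 12 probes, where 16.4% of all probes were. Together 8 of 12 probes were at an extreme in each of the 3 arrays, against 31.9% of all probes. The 4 Dclre1c probes among the 8 share a gene and are not independent. Each of the 3 arrays was also the lowest of its group in the summed level of the epithelial markers (7.17, 6.72 and 4.85) and of the white adipocyte markers (9.16, 8.77 and 8.62, against 9.56 to 10.3 in the other mice of these groups). The part of any of these cells in the pattern was not tested.

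Other genes of end joining were counted from a list of 22 measured genes (34 probes). Over both treatments 2 genes passed the strain thresholds as higher in BALB/c and 2 as lower, where 16.6% of all probes passed. Aplf, a scaffold that binds Ku and XRCC4, was 3.44 higher in sham mice by its brightest probe, and 1.79 with normexp, past the thresholds both ways. On the LDIR arrays of SPRET/EiJ that probe was well above background in 2 of 3, so no value over both treatments is given. Its other probe differed by -0.31 over both treatments (adjusted p = 0.212). Polm, a polymerase that fills gaps at ends, was -1.14 by its brightest probe and 1.11 by the other, both past the thresholds in opposite directions. Parp1, the break sensor that also serves alternative end joining, was lower in BALB/c at -0.92 (adjusted p = 0.00279). Dynll1, a 53BP1 partner, was 1.31 higher and dim, and was no longer called with normexp (0.26). Second probes of the shieldin genes Shld2 (0.83) and Shld1 also passed as higher, that of Shld1 well above background on none of the arrays compared. After LDIR 0 of 22 genes passed with limma in BALB/c pooled over the weeks, with 0 of 22 at an unadjusted p under 0.05, against 1.08% and 3.18% of all probes. A second probe of Cyren, a Ku-binding regulator, passed at 4 weeks in BALB/c but was well above background on none of those arrays.

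Between 4 and 8 weeks over both treatments 3 of these 22 genes were called higher and 1 lower, where 19.1% of all probes were called. Parp1 rose by 0.76 (adjusted p = 0.0263). Polq, the polymerase of alternative end joining, was called at 0.86 (adjusted p = 0.117) and Polm at 0.64 (adjusted p = 0.111). Paxip1, a 53BP1 partner, fell by 0.60 on the log2 scale (adjusted p = 0.0201). With normexp Parp1 was still called (0.75), and Polq (0.24), Polm (0.58) and Paxip1 (-0.55) were not. The second probe of Shld2 fell by 1.66 on the log2 scale (adjusted p = 0.000664).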

How the data were processed

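RNA of mammary tissue from 24 mice was measured on 1-colour Agilent arrays, 8 groups of 3 biological replicates, grouped by the strain, treatment and week in the labels. Per the file headers, the authors deposited the intensity of each spot from Feature Extraction 10.10.1.1, background-subtracted and detrended (no spot was saturated), with probes placed on mm9. The authors also deposited log2 values, normalized to the 75th percentile in GeneSpring and centred on each probe. After removing 1 constant per array (-0.0374 to 0.0251) and 1 per probe, these log2 values differed from those used here by at most 1.92e-06.

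Each intensity was log2-transformed and set relative to the 75th percentile of its array, 3777 outlier spots were left out and spots of a probe were averaged, giving 55681 probes. No pseudocount or floor was used. A probe was well above background on an array when a share above 0.5 of its spots were so marked. Precision is limited by having 3 arrays a group. Comparisons used lmFit and eBayes of limma 3.58.1 (R 4.3.3) with the thresholds of the methods, and Benjamini-Hochberg adjustment ran over all probes. The procedure was tested on simulated data. Figures were drawn with matplotlib 3.10.9.

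The members, every probe of each, the other end-joining genes and the marker lists were chosen with earlier results of these data known. Other end-joining genes are named where a probe passed. Paxx and Shld3 were on the list and not analysed here. Alternatives were normexp (offset 50), quantile normalization, the deposited log2 values, outliers kept, detected probes, the methods' t-test, 1 fit of 24 arrays, slide or replicate letter as a block, the 2-week or 8-week BALB/c sham group and leaving out each array. The later time comparisons, slide 2 alone, the lymphocyte-rich arrays left out and normexp for the other end-joining genes were added after the data were seen.

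Groups share replicate letters. Deviations of same-letter arrays at 2 weeks (LDIR and sham) correlated at 0.013, 0.140 and -0.031 over all probes, and at 0.167, 0.481 and 0.171 over the 29317 probes well above background on all arrays. The pairing therefore depends on the probes used and rests on these values alone. In no other comparison did all 3 correlations exceed 0.1.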

Additional observations from a re-analysis of the deposited data

How the results depend on the processing

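Counts are of the 12 probes past the thresholds. The share of all probes called under each alternative is not given beside them, so a changed count is not read as particular to these genes. Of the alternatives' counts, 195 stayed within 1.5 times and 26 did not. The 195 include counts of 0 that stayed 0, as in most fits of the LDIR comparisons, so they say little about the calls. Between sham strains (2 probes) the count was 5 in 1 fit of all 24 arrays, and 1 with slide as a block, with the replicate letter as a block, and with the 8-week BALB/c sham group. The strain comparison within slide 3, which holds LDIR BALB/c mice of 8 weeks and no sham BALB/c mouse, also gave 1. Between sham strains it was 1 to 2 with each array left out, and was 1 without SPRET/EiJ sham replicate A, B or C. Dclre1c A_55_P2129291 lost its call in these and without BALB/c sham replicate B. Between LDIR strains (1 probe) it was 2 in the 24-array fit. Over both treatments (4) it was 2 with normexp and 1 with slide as a block. After LDIR in SPRET/EiJ (0) it was 0 to 1 with each array left out. Between 8 and 4 weeks in sham mice (1) it was 0 with normexp and with the replicate block, 3 without the lymphocyte-rich arrays, and 0 to 3 with each array left out. The 3 came without 8-week sham replicate A. It was 0 without 4-week sham replicate A or C, or 8-week sham replicate B or C. In LDIR mice (2) it was 0 with quantile normalization, and 1 with slide as a block and without the lymphocyte-rich arrays. Over both treatments (3) it was 0 with normexp, 0 with quantile normalization and 1 with the deposited log2 values. The replicate block changed no other count by over 1.5 times. The letters did not pair the samples of the comparisons it did change.

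The sign of the Prkdc difference turned in several settings, always within its interval. Between sham strains it was 0.057 with slide as a block, 0.25 with the 2-week BALB/c sham group, and -0.17 to 0.063 with each array left out. Over both treatments it was 0.073 with slide as a block. After LDIR at 8 weeks it was -0.081 with slide as a block, in the 24-array and the 6-array fit, which is LDIR replicate A alone against the 3 sham mice, since the other LDIR mice were on slide 3, and -0.075 to 0.29 with each array left out. In SPRET/EiJ it was -0.018 to 0.44 with each array left out. The cause of these changes was not tested. Dclre1c A_55_P2067116 kept its strain call in sham mice in each alternative run.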

Other observations

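Over the 8 group means, each centred on its own mean, the genes whose brightest probe was most like Prkdc were Ppp4r1l-ps, Cdc73 and Usp47, with root mean square differences of 0.0746, 0.0781 and 0.0876 on the log2 scale. These were the closest of 14335 genes compared, and the Prkdc profile itself had a root mean square of 0.191. The SD of Prkdc between mice of the same group had a median of 0.235, larger than these values, so the ranking is imprecise. Cdc73 is a subunit of the PAF1 complex, which accompanies RNA polymerase II, and Usp47 is a deubiquitinase. The likeness is a description over 8 groups that share strain, week and slide.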
